A study of Zea mays with 48 samples.

Results

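Uninfested leaves of the maize inbred B75 were compared with uninfested leaves of the inbred B73, so the differences are those that each line carried before any mite fed on it. The comparison used 8 of the 48 libraries of the study, chosen by their titles: the 4 replicates of uninfested B75, and replicates 5 to 8 of uninfested B73, which the design text names as the counterpart of B75. The wider study exposed B73, B75, a further inbred (B96) and the F1 plants of B73 with each of them to the spider mite Tetranychus urticae. Both groups were inbred plants grown in a greenhouse and sampled from leaf 4 at 22 days, and both carried the wax barrier that fenced in mites on the infested plants (200 adult females for 24 hours). Plants of the B75 experiment stood in randomized blocks and were harvested together, according to the protocols. Libraries of a group are named as biological replicates, but the number of plants in each is not stated. The p-values therefore reflect the spread among libraries, part of which may be technical. For B75 against B73 that spread was estimated over all 24 libraries of the B75 experiment, infested and F1 ones included.

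B73 is the line behind the maize reference genome, and B75 is an inbred known for resistance to spider mites. Spider mites pierce leaf cells and feed on their contents, and plants answer with jasmonate signalling and with toxins and proteins that hinder digestion. A resistant line may hold such products before attack, make more of them after it, or do both. Maize inbreds also differ widely in gene content, since many genes of a given line are missing, duplicated or altered in another.

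Reads were counted on the B73 genome for all lines. A lower level in B75 or B96 therefore also holds any reads lost to sequence differences from B73. The part of this loss in the results was not tested. Levels are given as CPM, counts per 1000000 counts of a library after scaling. In leaf tissue as a whole, fewer cells of a type and less RNA per cell cannot be told apart. The deposited table identifies genes by numbers that it does not pair with names, and the available table of names matched 0 of the 44146 identifiers of the Zm series and 153 of the 154 microRNA precursors. Genes are therefore described in groups, with a few identifiers chosen by rule, and the precursors by name. For the same reason the leaf tissue could not be checked against marker genes.

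The 8 libraries held 12541721 to 20903277 gene counts in B75 and 14220513 to 20133839 in B73. The lines separated fully: 85% of the variance lay on the first principal component, and Pearson correlations of log2 CPM ran from 0.966 to 0.989 within a line and from 0.817 to 0.828 between lines. The B73 libraries were the more spread out, with replicate 6 on one side of the second component and replicates 7 and 8 on the other. The median gene had an SD of 0.215 on the log2 scale among B75 libraries and of 0.238 among B73 libraries. The reads not assigned to a single gene took 17 to 23.2% of the total in B75 and 13.1 to 28% in B73. Most of them aligned to several places (11.9 to 18.4% in B75 and 8.95 to 22.4% in B73). Reads that overlapped no gene took 4.16 to 4.66% in B75 and 3.61 to 4.97% in B73. Reads that overlapped more than 1 gene took 0.61 to 0.669% in B75 and 0.538 to 0.594% in B73, a difference without overlap between the libraries (exact two-sided permutation test, p = 0.0286, the smallest that 4 against 4 allow, and 0.2 after adjustment over 7 measures). A similar number of features reached 1 CPM in each, 19036 to 19154 in B75 and 18979 to 19260 in B73 (exact permutation p = 0.457).

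Most tested genes differed between the lines, and about as many by less as by more than 2-fold. Of 22572 genes, 12331 (54.6%) passed an adjusted p of 0.05 in edgeR's quasi-likelihood test, 5707 (25.3%) higher and 6624 (29.3%) lower in B75. With any 1 of the 8 libraries left out, 11453 to 12296 genes were called. The median size of a called difference was 0.96 on the log2 scale, and 6401 calls, 51.9% of them, were under 2-fold. At least 2-fold were 2517 genes (11.2%) higher and 3413 genes (15.1%) lower in B75. At least 4-fold were 1483 genes (6.57%) higher and 1798 (7.97%) lower, and at least 16-fold were 922 (4.08%) higher and 822 (3.64%) lower. The libraries of both lines did not overlap at 4738 genes (21%) in the higher and 5403 genes (23.9%) in the lower direction.

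The excess of lower over higher genes varied with the fit. With median-of-ratios size factors 6104 genes were higher and 6319 lower in B75, with DESeq2 6220 were higher and 6432 lower, and with the 8 libraries fitted alone 5010 were higher and 5251 lower. Without the filter on low counts the order turned, with 6882 higher and 6767 lower. Tested against a fold of 2 in place of any difference, 1825 genes were higher and 2315 lower in B75.

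Line differences reached through all levels of expression, but large ones took a greater share of the genes of low level. Of 2782 genes with a mean under 1 CPM, 1489 (53.5%) were called, 1444 of them by at least 2-fold. Of 7433 genes between 1 and 10 CPM, 4257 (57.3%) were called, 2796 of them by at least 2-fold. Among 10451 genes between 10 and 100 CPM, 53.5% were called as well, yet only 1474 (14.1%) were called and at least 2-fold. In the 95 genes at 1000 CPM or more, 19 were higher and 14 lower in B75, and 7 of these differed at least 2-fold. The standard error of the fold change had a median of 0.55 on the log2 scale under 1 CPM and 0.12 between 10 and 100 CPM, so a small difference could not be seen in genes of low level. Summed over the 5707 higher genes, the level was 297000 ± 14200 CPM in B75 and 184000 ± 9230 CPM in B73 (SD, n = 4). Over the 6624 lower genes it was 180000 ± 11700 CPM in B75 and 332000 ± 14900 CPM in B73. These sums describe genes picked by the test, and the 10 genes with the widest gaps held 11.2% of the gain and 9.49% of the loss.

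**Figure D1:**
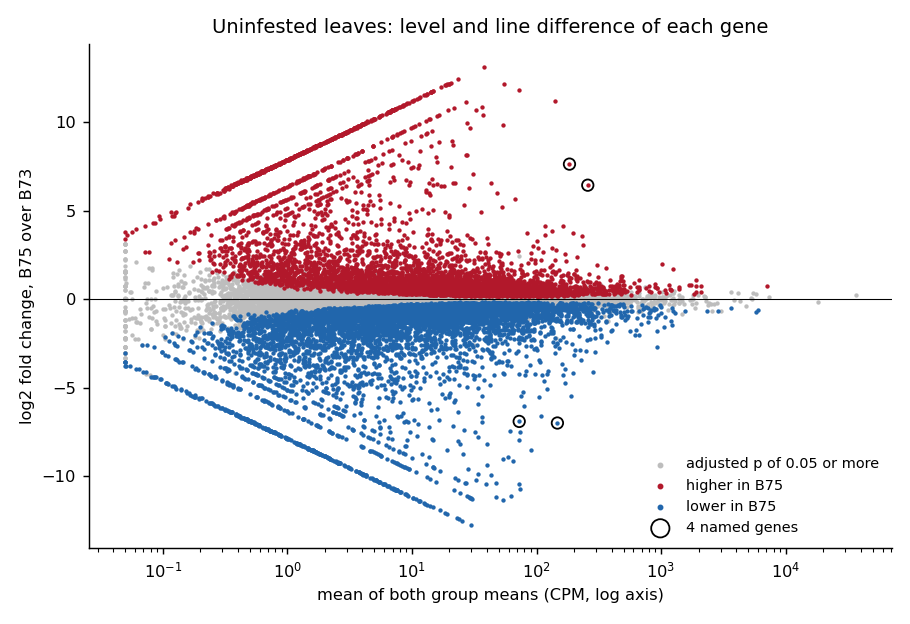
Each point is 1 of 22572 genes, with the mean of both group means in CPM on a log axis and the log2 fold change of B75 over B73 in uninfested leaves. Red genes are higher and blue genes lower in B75 at an adjusted p under 0.05. The slanted outer lines are genes with no or few counts in either line, whose fitted fold change depends on a small added count, and means under 0.05 CPM are drawn at that value.

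Among genes read in both lines, the widest gaps were large next to the spread among replicates. The following 4 identifiers had at least 1 CPM in each line, no overlap and the largest fitted differences of 6300 such genes. Zm00001d026070 had 353, 366, 390 and 356 CPM in B75 leaves, against 2.08, 0.979, 2.25 and 1.99 CPM in B73 leaves. Its fold change was 7.63 ± 0.17 on the log2 scale (SE, edgeR adjusted p = 6.47e-19), a 198-fold difference with all 4 B75 libraries far above all B73 libraries. Their F1 stood between them in uninfested leaves, at 153 ± 16.6 CPM (n = 4).

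Zm00001d024980 had 467, 532, 530 and 510 CPM in B75, against 5.2, 6.23, 7.75 and 4.44 CPM in B73. The fold change was 6.44 ± 0.26 (edgeR adjusted p = 2.17e-15), and the F1 held 220 ± 71.0 CPM. All 4 B75 libraries again stood far above all B73 libraries, 86.7-fold on the fitted scale.

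In the other direction, Zm00001d020910 had 2.22, 3.02, 1.79 and 2.23 CPM in B75, against 317, 297, 275 and 278 CPM in B73 (log2 fold change -6.99 ± 0.30, edgeR adjusted p = 5.35e-15). Zm00001d017418 had 1.82, 1.31, 0.717 and 1.11 CPM in B75, against 157, 171.8, 125 and 124 CPM in B73 (-6.90 ± 0.24, edgeR adjusted p = 1.44e-16). In the F1 the levels were 75.8 ± 24.4 and 66.8 ± 3.20 CPM. In both genes all B75 libraries lay far below all B73 libraries. Infested libraries shared the fit, but their levels did not choose these genes. In infested leaves the log2 fold changes of B75 over B73 were 6.53 ± 0.16, 6.59 ± 0.27, -7.83 ± 0.34 and -5.94 ± 0.24 for the 4 genes in the order given (edgeR adjusted p = 4.39e-18 to 5.39e-15).

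**Figure D2:**
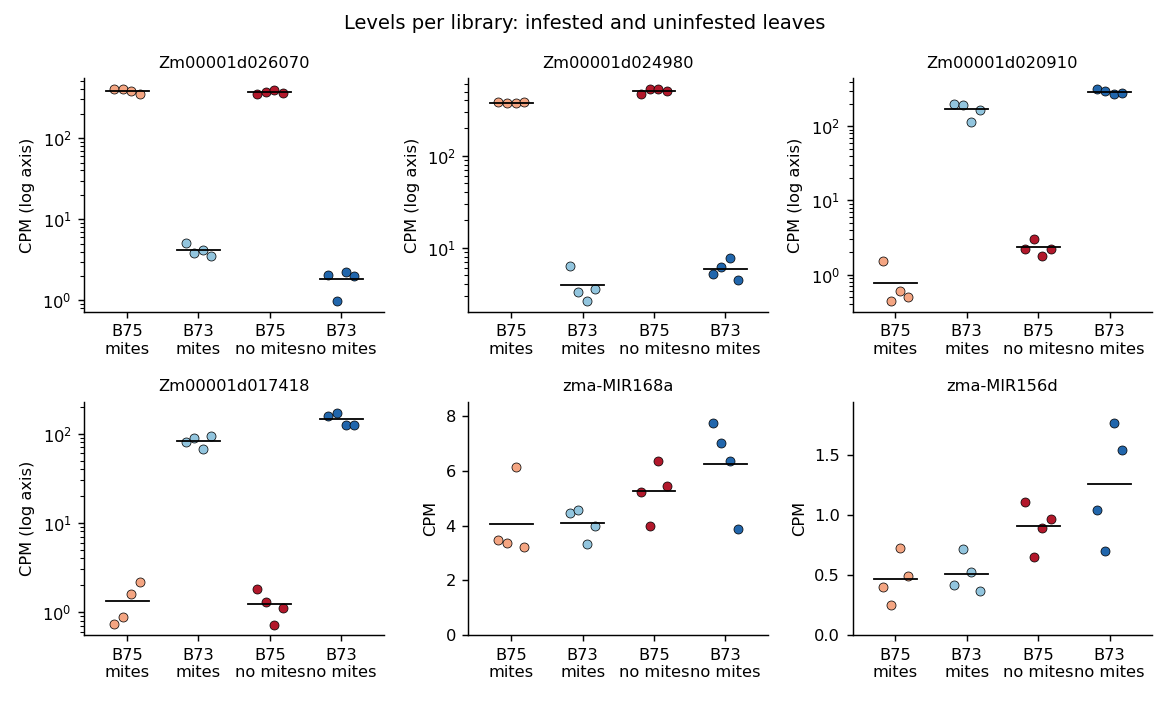
Points are the CPM of single libraries and bars are the means of 4, for 4 genes on log axes and for 2 microRNA precursors on linear axes that start at 0. The 4 genes are separated by line with or without mites, whereas the precursors overlap between B75 and B73.

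A further group of genes was read in 1 line and hardly at all in the other. In 196 genes B75 averaged 5 CPM or more while all 4 B73 libraries together held under 3 counts, and 133 of these had 0 counts in B73. The reverse class, read in B73 and not in B75, held 157 genes, 88 of them with 0 counts in B75. They were moderate transcripts, with a median level of 10.8 CPM in the first class and 12.9 CPM in the second, and together they made up 2810 to 3290 CPM of each B75 library and 2700 to 2990 CPM of each B73 library.

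Libraries that did not choose these genes showed the same division for most of them. In infested leaves, 178 of the 196 genes still had under 3 counts over the 4 B73 libraries, and 138 of the 157 still had under 3 over the 4 B75 libraries. On the side that was read, 152 of the 196 averaged 5 CPM or more in infested B75, and 145 of the 157 did in infested B73. In the uninfested B73 plants of the B96 experiment, 180 of the 196 again had under 3 counts and 0 reached 5 CPM, while 147 of the 157 reached 5 CPM. B96 leaves read a part of both classes, with 57 of the 196 genes and 32 of the 157 at 5 CPM or more, and 77 and 71 with under 3 counts. Counts of such genes depend on the limits: a level of 1 CPM gave 570 genes read in B75 alone and 357 in B73 alone. For the 157 genes unread in B75, missing genes, silent genes and genes whose reads no longer align cannot be told apart in these counts. The 196 genes unread in B73 are features of the B73 genome, on which all reads were counted. Why they had few or no counts in B73 was not tested.

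How large a difference arises without any difference of line was measured between the uninfested B73 plants of both experiments. In the fit of all 48 libraries, 205 of 23751 genes (0.863%) differed between B73 of the B75 experiment and B73 of the B96 experiment, 126 (0.531%) higher and 79 (0.333%) lower in B73 of the B75 experiment, and 2774 passed an unadjusted p of 0.05. In the same fit B75 differed from its B73 at 12653 genes (53.3%). Of the 205 genes, 153 (74.6%) were among these, and B73 replicates 5 to 8 serve in both comparisons. The median absolute log2 fold change was 0.15 between the B73 groups and 0.49 between B75 and B73, and 3501 genes (14.7%) differed between B75 and B73 by more than the 99th percentile of the B73 groups, 2.14. The count of 205 was unstable when single libraries were left out. It was 334 without B73 replicate 6, 76 without replicate 7, 49 without replicate 8, and 90, 80 and 77 without replicates 1, 2 and 3 of the other B73 group, and a fit of the 2 groups alone gave 5. With the B73 plants of the B96 experiment in place of its own, B75 differed at 12916 genes, 6337 higher and 6579 lower.

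**Figure D3:**
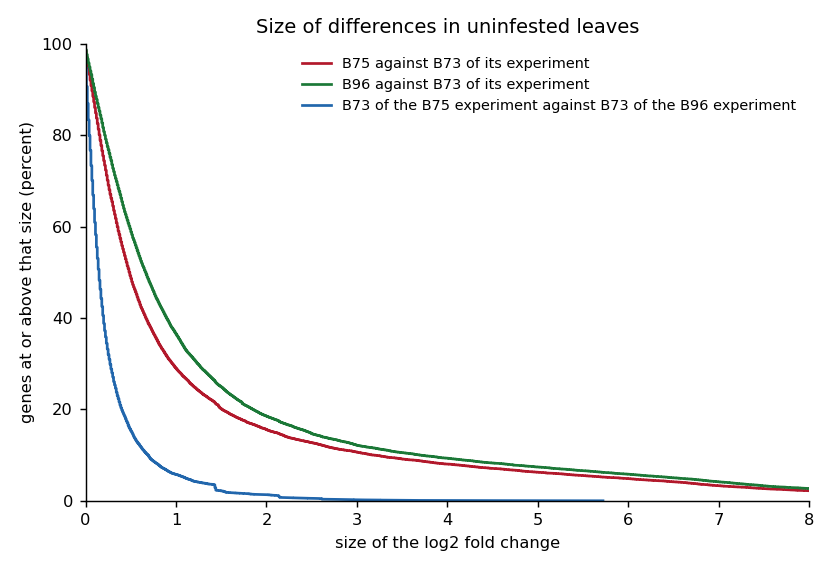
The vertical axis gives the percentage of 23751 genes whose log2 fold change in uninfested leaves is at least as large as the value on the horizontal axis. The median sizes are 0.49 for B75 against B73 and 0.15 for B73 against B73, and the curve of B96 against B73 lies above both.

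Whether the line differences were the same with mites was checked in infested leaves. The uninfested contrast did not use their levels, but both contrasts shared a filter, a scaling and an estimate of the spread. In infested leaves 12065 of 22572 genes (53.5%) differed between B75 and B73, 6236 (27.6%) higher and 5829 (25.8%) lower in B75. This excess of higher genes was not stable: lower genes were the more numerous in each of the 8 fits without 1 infested library, with 5424 to 5606 higher and 5731 to 6102 lower. Of the 5707 genes higher in uninfested B75, 4147 (72.7%) were also called higher in infested B75 and 42 were called lower. Of the 6624 lower genes, 4451 (67.2%) were also called lower and 160 were called higher. In all, 8598 genes were called in the same direction in both conditions. With only the groups of each contrast fitted, 10261 genes were called in uninfested leaves, and 7149 were called in the same direction in both. The larger the difference, the more often it was called again: 85.4% of the genes that differed at least 2-fold and 93.4% of those at least 4-fold. The log2 fold changes with and without mites correlated at 0.93 (Pearson) and 0.765 (Spearman) over the 22572 genes, a description only, since genes are not replicates.

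Mites nevertheless changed the size of the line difference at a minority of genes. The difference between both conditions, tested as the interaction of line and mites, passed the threshold at 2077 of 22572 genes (9.2%), positive at 1475 (6.53%) and negative at 602 (2.67%), and at 1483 of the 12331 called in uninfested leaves (12%). The count of 1483 was 901 without B75 uninfested replicate 4. Among the 1483, the gap narrowed or lost its call at 317 of the higher and 750 of the lower genes. Of these, 195 and 438 were no longer called in infested leaves, whatever the sign of the fitted difference there. It widened at 149 higher and 65 lower genes. At 42 higher and 160 lower genes it turned round, which means a call in the opposite direction with mites. These genes were chosen by their uninfested difference, which is also the baseline of the interaction, so the choice favours narrowing over widening. The part of this choice in the counts was not tested.

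The widest changes of this kind among genes with at least 1 CPM in all 4 groups ran in both directions. Zm00001d037689 had 36.4, 42.3, 33.5 and 30.3 CPM in infested B75 and 61.1, 76.2, 47.7 and 57.7 CPM in infested B73, but 1.35, 1.8, 0.896 and 0.678 CPM in uninfested B75 and 73.5, 76.4, 58.4 and 58.1 CPM in uninfested B73. B73 held the gene at a like level with and without mites, while B75 nearly lacked it until mites were present. The line difference was -0.77 ± 0.18 on the log2 scale with mites and -5.89 ± 0.25 without, a change of 5.12 ± 0.31 (edgeR adjusted p = 2.88e-10).

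Zm00001d051194 reached 2395, 1121, 3818.5 and 2641 CPM in infested B75 and 1997, 1297, 587 and 1306 CPM in infested B73. In uninfested leaves it stood at 69.5, 18.4, 11.2 and 27.6 CPM in B75 and at 1170, 571, 226 and 185 CPM in B73, a group that varied widely but did not overlap with B75. The line difference changed by 5.03 ± 0.89 (edgeR adjusted p = 0.00094).

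Zm00001d015054 showed a gap only in uninfested leaves. Infested B75 had 394.6, 679, 719 and 467 CPM and infested B73 had 420, 692, 969 and 578 CPM. Uninfested B75 already had 180, 427, 470 and 390 CPM, against 38.9, 7.76, 24 and 40.3 CPM in uninfested B73, a log2 fold change of 3.72 ± 0.39 (edgeR adjusted p = 2.28e-08) that changed by -3.95 ± 0.51 with mites (edgeR adjusted p = 4.3e-05). Zm00001d043610 (change of -4.04 ± 1.04, edgeR adjusted p = 0.0165) was less even: it had 1.61, 2.88, 1.58 and 4.06 CPM in infested B75 and 7.74, 9.01, 8.05 and 6.14 CPM in infested B73, and its uninfested libraries overlapped, with 95.5, 15.1, 5.73 and 49.5 CPM in B75 and 1.97, 1.05, 12.5 and 14.8 CPM in B73.

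**Figure D4:**
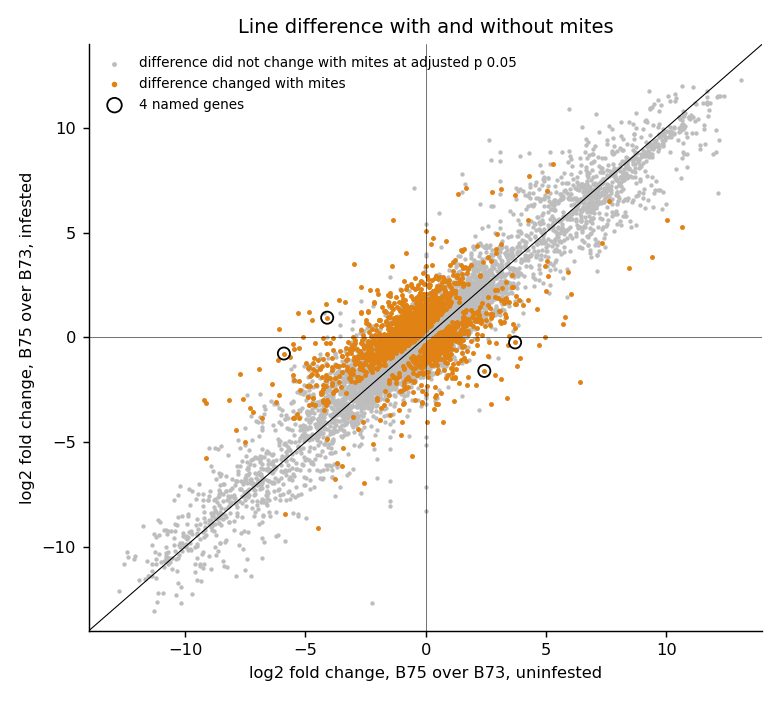
Each point is 1 of 22572 genes, with the log2 fold change of B75 over B73 in infested leaves on the vertical and in uninfested leaves on the horizontal axis. Orange genes are the 2077 whose line difference changed with mites at an adjusted p under 0.05, circles are the 4 genes named for it, and the line marks equal differences.

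Genes that answer to mites were followed into uninfested leaves with lists made in other libraries. A list of 1729 genes that rose at least 2-fold with mites was taken from the B73 libraries of the B96 experiment. There 1784 of 22569 tested genes (7.9%) rose and 188 (0.833%) fell by that much. The lists hold those that were also tested in the B75 experiment. Of the 1729 genes, 278 (16.1%, against 25.3% of all genes) were higher and 708 (40.9%, against 29.3%) lower in uninfested B75, with a median log2 fold change of -0.59 against -0.02 for all genes. Members had to be read in B73 to be listed, so genes read in B75 alone, which are among all genes, could not enter. The part of this choice in the counts was not tested. Relative to the mean of uninfested B73, the median level of these genes was -0.46, -0.34, -0.51 and -0.44 on the log2 scale in the 4 uninfested B75 libraries, and 0.11, -0.40, 0.07 and 0.21 in B73 replicates 5 to 8. B73 replicate 6 therefore stood within the range of B75, apart from the other B73 libraries. With that library left out of the fit, 248 genes of the list were higher and 753 lower in B75, and the median was -0.71.

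Infested leaves set the scale of these values. The same median was 1.01 to 1.34 in infested B75 and 1.45 to 1.91 in infested B73, so no uninfested library of either line reached the range of the infested libraries. Listed genes that fell at least 2-fold with mites numbered 181. Of these, 34 (18.8%) were higher and 68 (37.6%) lower in uninfested B75. That was a tilt to the same side, in a list chosen in the same way. The 12 that fell at least 4-fold held 6 higher and 4 lower genes, with a median log2 fold change of 0.74, and their median level was 0.52 to 1.09 in uninfested B75 and -0.32 to 0.18 in uninfested B73. The median level of the 181 genes was -0.39 to -0.08 in uninfested B75 and -0.12 to 0.24 in uninfested B73, and these ranges overlap.

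**Figure D5:**
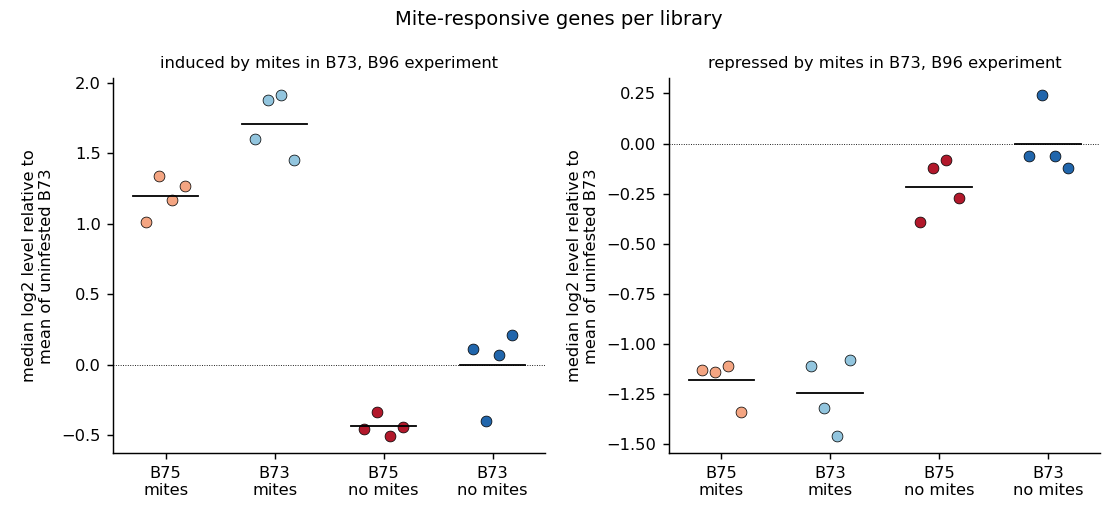
Points are single libraries and bars the means of 4: the median over the list of the log2 level relative to the mean of uninfested B73, for 1729 mite-induced genes on the left and 181 mite-repressed genes on the right. Uninfested B75 lies between -0.51 and -0.34 for the induced genes, and B73 replicate 6 lies at -0.40.

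B96, another inbred known for mite resistance, allowed the differences of B75 to be set beside those of a further line, each against the B73 plants of its own experiment and without shared libraries. In the common fit, 15175 of 23751 genes (63.9%) differed between B96 and its B73, 31.6% higher and 32.3% lower in B96. In B75, 6025 genes were higher and 6628 lower. Of the higher genes, 3052 were also higher in B96, 954 were lower and 2019 were not called. Of the lower genes, 3783 were also lower in B96, 904 were higher and 1941 were not called. Both differences are taken from B73, so a gene in which B73 stands alone counts in each. Tested directly, the difference of B75 departed from that of B96 at 10649 of 23751 genes (44.8%), above it at 21.9% and below it at 22.9%, among them 2756 (45.7%) of the genes higher and 3460 (52.2%) of the genes lower in B75.

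The widest departures were genes at which the lines went separate ways. Zm00001d024281 had 4.71, 1.14, 0.872 and 2.01 CPM in uninfested B75 and 421, 177, 93 and 111 CPM in its B73, but 1108, 1858, 1009 and 1591 CPM in uninfested B96 and 188, 224, 276 and 294 CPM in its B73. The log2 fold change was -6.56 ± 0.47 in B75 and 2.5 ± 0.37 in B96, a difference of -9.06 ± 0.60 (edgeR adjusted p = 2.33e-16). In infested leaves the gap between B75 and its B73 remained, with 5.78, 3.69, 8.32 and 15.1 CPM in B75 and 1554, 1444, 1178.5 and 1275 CPM in B73. Zm00001d037680 averaged 1.2 ± 0.642 CPM in B75 and 4.93 ± 3.56 CPM in its B73, against 661 ± 186 CPM in B96 and 8.79 ± 2.85 CPM in its B73 (SD, n = 4). The difference was -8.34 ± 0.57 (edgeR adjusted p = 9.49e-16). For this gene the uninfested libraries of B75 and its B73 overlapped at low levels. In infested leaves B75 was the higher, with 152 ± 20.2 CPM against 46.5 ± 22.8 CPM in its B73.

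In the other direction B75 stood less than 2-fold above B73 while B96 had few counts on the B73 genome. Whether B96 reads were lost to sequence differences was not tested. Zm00001d039142 averaged 1150 ± 145 CPM in B75 and 897 ± 99.4 CPM in its B73, against 1.82 ± 0.702 CPM in B96 and 774 ± 68.9 CPM in its B73 (difference 9.10 ± 0.26, edgeR adjusted p = 4.14e-28). Zm00001d023318 averaged 109 ± 13.4 CPM in B75 and 66.3 ± 12.7 CPM in its B73, against 1.36 ± 0.302 CPM in B96 and 71.6 ± 7.97 CPM in its B73 (6.44 ± 0.32, edgeR adjusted p = 3.56e-20).

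MicroRNA precursors were the features with names. MicroRNAs are cut from longer precursor transcripts, and libraries of polyadenylated RNA hold the precursors rather than the mature molecules. Of 154 precursors 24 were read in the 8 libraries and 2 passed the filter on low counts. The precursor zma-MIR168a gives rise to miR168, which targets the mRNA of ARGONAUTE1, the protein through which plant microRNAs act. It had 5.23, 4, 6.33 and 5.42 CPM in B75 and 7.72, 6.99, 6.34 and 3.87 CPM in B73, and the libraries overlapped (log2 fold change -0.24 ± 0.22, edgeR adjusted p = 0.379).

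The precursor zma-MIR156d gives rise to miR156, which targets SBP-box transcription factors and holds plants in the juvenile phase. It had 1.11, 0.653, 0.896 and 0.968 CPM in B75 and 1.04, 0.699, 1.76 and 1.54 CPM in B73, again with overlap (-0.46 ± 0.35, edgeR adjusted p = 0.269). Neither precursor was called, at an unadjusted p of 0.05 or by DESeq2 either.

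In this respect B75 differed from B96. In uninfested leaves zma-MIR168a had 5.09, 3.72, 5.78 and 5.24 CPM in B75 and 7.21, 6.57, 5.94 and 3.62 CPM in its B73 on the scale of all 48 libraries, but 0, 0, 0.0807 and 0 CPM in B96 and 2.9, 4.45, 5.31 and 11.7 CPM in its B73. It was counted in every library of B75 and hardly at all in B96, whose reads were also counted on the B73 genome. Whether B96 reads were lost to sequence differences or aligned to several places was not tested. The difference of B75 thus departed from that of B96 by 7.51 ± 1.18 on the log2 scale (edgeR adjusted p = 1.55e-06), a fitted value that rests on 1 count in B96 and is no bound.

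The remaining precursors were too thin for the main test, and those with near-identical copies are uncertain because reads that aligned to several places stand in a summary line apart from the genes. Over 4 libraries each, zma-MIR528b had 17 counts in B75 and 0 in B73, while its sister zma-MIR528a had 0 in B75 and 6 in B73. The precursor zma-MIR156j had 0 counts in B75 and 24 in B73, in 2 of its 4 libraries, and zma-MIR159a had 5 in B75 and 22 in B73. These 4 and zma-MIR1432 (0 counts in B75 and 8 in B73) passed the threshold only when the filter was dropped (edgeR adjusted p = 0.00159 to 0.0459). The second miR168 precursor, zma-MIR168b, had 37 counts in B75 and 19 in B73. With the filter dropped it was tested and not called. Without B73 replicate 6 it passed the filter and was higher in B75 (log2 fold change 1.5, edgeR adjusted p = 0.0113).

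Genes with consecutive identifier numbers were slightly more alike in direction than all genes. Where the next number was also tested, 29.2% of the 2740 higher genes were followed by a higher one, against 24.9% over all 11171 such pairs. Of the 3320 lower genes, 34.2% were followed by a lower one, against 30.2%. For genes called and at least 2-fold apart, the shares were 17.6% against 10.6% in the higher and 22% against 15% in the lower direction. Positions on the B73 genome were not used here, so the distance between these genes is not given.

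The longest runs held 6 identifiers. In the run from Zm00001d011222 to Zm00001d011227 all 6 genes were higher in B75, from 38.4 CPM in B75 and 33.1 CPM in B73 at its first member to 4.28 CPM in B75 and 0.122 CPM in B73 at its last. In the run from Zm00001d043649 to Zm00001d043654, 1 of 2 of that length, all 6 were lower. The first member had 0.087 CPM in B75 and 85.8 CPM in B73, and the last had 0 counts in B75 and 1.34 CPM in B73. The members between them included genes of 32.3, 43.7 and 35.5 CPM in B75 against 157, 106 and 181 CPM in B73. All 12 genes of both runs had the same sign in infested leaves, where 10 of them passed the threshold. Most called genes did likewise. Over all genes called in uninfested leaves, 92.6% of the higher and 89.6% of the lower kept their sign with mites. In the same direction, 72.7% and 67.2% were called again.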

How the data were processed

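Leaf RNA was sequenced as poly(A)-selected, stranded libraries. The authors deposited whole-number read counts for 46272 features in 48 libraries, and STAR 2.5.3a, HTSeq 0.9.1 and the build B73 RefGen_v4 are named per the submitters' processing notes. Counting options are not stated. The 5 summary lines of the deposited table (13.1 to 28% of the counts in the 8 libraries) stayed out of library sizes and tests. Depth was 12541721 to 20903277 gene counts, and low counts limit precision.

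Libraries were grouped by their titles. Counts were tested with edgeR 4.0.16 in R 4.3.3 (quasi-likelihood F test, TMM scaling, filterByExpr with a minimum count of 10, Benjamini-Hochberg adjusted p under 0.05). The comparisons of B75 with B73 were fitted over the 24 libraries of the B75 experiment, and those with B96 or between B73 groups over all 48. CPM are on scaled library sizes of the fit in question. The fit was tested on simulated data, with changes of 2-fold and of 4-fold in 100 genes each. For B75 against B73, 92 and 97 of them were recovered. For the departure of B75 from B96, 66 and 93 were recovered. Changed genes were far fewer there than the genes called in the real data. Alternatives were DESeq2 1.42.0, median-of-ratios scaling, no filter, the compared groups alone, a replicate block and each library left out.

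Genes were named by rule: the 2 largest rises and 2 largest falls among genes of at least 1 CPM in the groups compared, the longest run of consecutive identifiers in each direction, and all tested precursors. The lists of defence and photosynthesis genes and of leaf cell markers found no matching identifier and gave no value. The members, lists and rules were chosen with earlier results of these data known.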

Additional observations from a re-analysis of the deposited data

Results flagged for a closer look

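In uninfested B73 replicate 6 the median of the mite-repressed genes was 0.24 on the log2 scale relative to the B73 mean, against -0.12 to -0.06 in the other 3 B73 libraries. Its gap to the nearest library, as a share of the whole range of the group, was above Dixon's 95% critical value for 4 samples, in 1 of 44 groups checked, where chance gives about 1 in 20. For the mite-induced genes the same library stood at -0.40 against 0.07 to 0.21, a wider gap but a smaller share of the range, below that value.

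At 6 named genes the line difference itself changed with mites by edgeR's test of the interaction. The difference with mites minus that without was -1.10 for Zm00001d026070, 5.12 for Zm00001d037689, 5.03 for Zm00001d051194, -4.04 for Zm00001d043610, -3.95 for Zm00001d015054 and 3.84 for Zm00001d037680, on the log2 scale. All but the first and the last of these were picked for this change.

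At 10 named genes and both tested precursors the difference of B75 from B73 departed from that of B96 from its B73. Picked for this were Zm00001d039142 (9.10), Zm00001d023318 (6.44), Zm00001d024281 (-9.06) and Zm00001d037680 (-8.34). Among genes named for other reasons it was 1.37 for Zm00001d026070, -3.05 for Zm00001d020910, -3.40 for Zm00001d017418, -4.03 for Zm00001d051194, 4.85 for Zm00001d043610 and 8.32 for Zm00001d015054. For zma-MIR168a it was 7.51, with 1 count in B96, and for zma-MIR156d it was 1.63 (edgeR adjusted p = 0.0304).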

How the results depend on the processing

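Of the alternatives other than left-out libraries, 84 values of counts or medians stayed within their limits and 18 moved, while all 78 values of named genes and precursors kept their direction and their side of the threshold. Against a fold of 2, edgeR called 4140 genes, 1825 higher and 2315 lower in uninfested B75. The difference between B73 groups had 384 calls with DESeq2 (211 higher, 173 lower) and 5 with the 2 groups alone (4 higher, 1 lower), and 49 to 334 with a library left out (29 to 243 higher, 20 to 106 lower). The cause was not tested. Without 1 library, the line difference changed with mites at 901 to 1694 of the uninfested calls, and 0 to 1 precursors were called. No filter gave 5 called precursors. Genes read in 1 line numbered 570 in B75 and 357 in B73 at 1 CPM, and 103 and 101 at 10 CPM, while a limit of exactly 0 counts gave 88 in B73. Mite-induced genes of at least 4-fold were higher in uninfested B75 at 100 and lower at 284, with a median of -0.89, whereas the 12 repressed genes of at least 4-fold had a median of 0.74. Leaving out libraries for the mite-induced list was chosen after seeing the data, and gave medians of -0.71 to -0.50.

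The labels number B75 1 to 4 and B73 5 to 8, so blocks were taken from facility numbers, which lie in runs of 6. The labels do not say that these runs are the randomized blocks of the plants. Deviations of uninfested B75 and B73 libraries of the same block correlated at -0.01 to 0.11, and those of other blocks at -0.1 to 0.1. Over 60 same-block pairs of all groups of the experiment the mean was 0.116, and 34 pairs were above 0.1. Since not every pair was, the block was not treated as pairing the samples. This rule does not show that blocks had no effect. With the replicate block, 12789 genes were called, 5937 higher and 6852 lower, and the line difference changed with mites at 1882 of the uninfested calls in place of 1483. No block could be fitted between the B73 groups, whose blocks lie within separate experiments.

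Low counts limit the precision: the standard error had a median of 0.55 on the log2 scale under 1 CPM.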

Other observations

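Of 124 tested features of the ENSRNA series, 42 passed the threshold in uninfested leaves, 26 higher and 16 lower in B75, against 12289 of 22431 of the Zm series. Of 15 tested features of the GRMZM5G series, 0 passed it in edgeR, 0 at an unadjusted p under 0.05 and 0 in DESeq2, with log2 fold changes between -0.75 and 0.98. The difference between these series was not tested.

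Of the tested genes, 45.5% had the larger SD of log2 CPM in B75.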
